A study of Mus musculus with 6 samples.

Results

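The genes described here are 41 mouse genes of xenobiotic and retinoid metabolism, among 19949 genes measured. They were chosen by name as enzymes and pumps of known function, with earlier results of these data known. They fall into 7 classes: cytochrome P450 enzymes with their reductase Por (10 genes), retinoid, alcohol and aldehyde dehydrogenases (5), carboxylesterases (4), epoxide hydrolases with the quinone reductase Nqo1 (3), glutathione transferases (10), other conjugating enzymes (5) and efflux pumps (4). Colon RNA was sequenced from STAT6-/- mice and from WT mice, with 3 libraries for each genotype. STAT6 is the transcription factor activated by interleukin-4 and interleukin-13. All mice were labelled BALB/c, were 6 to 8 weeks old and were given 3% dextran sulfate sodium (DSS), an agent that injures the colonic epithelium, at will for 3 days. The groups therefore share the DSS treatment and differ in the labelled genotype, while mice without DSS are not analysed here. The labels call the tissue colon while their protocol speaks of the proximal intestine. They name neither the STAT6 allele nor the sex of the mice, and do not say whether the replicates were separate animals or pools, so p-values reflect only the variation among libraries, which may be technical.

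Xenobiotic metabolism runs in steps. Phase I enzymes, above all the cytochrome P450 monooxygenases fed with electrons by Por, oxidise foreign and endogenous compounds, and carboxylesterases and epoxide hydrolases cleave them with water. Phase II enzymes attach glutathione, glucuronic acid, sulfate or methyl groups, and efflux pumps of the ABC family carry the products out of the cell. The colonic epithelium uses this system against dietary and bacterial compounds. Retinoid metabolism shares its enzyme families: retinol is oxidised to retinaldehyde by short-chain and alcohol dehydrogenases, and retinaldehyde to retinoic acid by aldehyde dehydrogenases of the Aldh1a group.

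The libraries held 17122315 to 19555450 expected counts, which are estimated read numbers per transcript, summed here per gene. Levels of a gene are given as CPM, read counts made comparable between libraries by TMM scaling, and levels of different genes are compared only as FPKM, which also corrects for transcript length. Stat6 stood at 49.9, 38.5 and 53.2 CPM in the STAT6-/- libraries, against 91.7, 104 and 88.8 CPM in WT, so its transcript was lower but not absent (log2 fold change -1.01 ± 0.16, edgeR adjusted p = 0.0134, exact two-sided permutation p = 0.1, the smallest that 3 against 3 can give). Sex-linked genes split by genotype. The Y-linked gene Ddx3y stood at 50.9 to 59.5 CPM in STAT6-/- and 0.0567 to 0.124 in WT, and the female X-inactivation RNA Xist at 0.264 to 0.992 and 352 to 545. Each difference below is thus between genotypes and between sexes at once, and these cannot be told apart. The colonocyte genes Lypd8 and Slc26a3 were abundant in all 6 libraries and the small intestinal enzymes Sis and Lct were below 1 CPM in each. The 11 small intestinal genes together held 143 FPKM in STAT6-/- replicate 3 and at most 28.0 FPKM in the other STAT6-/- libraries, against 15.9, 16.2 and 21.1 FPKM in WT, so STAT6-/- replicate 3 stood apart. Most of that sum was Fabp6, the bile acid-binding protein of the ileum (3.50, 22.7 and 134 FPKM in STAT6-/- and 8.45 to 10.3 FPKM in WT, adjusted p = 0.146), and 1 of the 5 tested, the alkaline phosphatase Alpi, was called higher (log2 fold change 2.38 ± 0.70). The 10 liver genes summed to 30.4 to 37.2 FPKM in STAT6-/- and 39.3 to 63.2 FPKM in WT, with Alb at 0.653 to 1.98 and 1.60 to 3.04 CPM. The distal gut gene Hoxd13 stood at 4.48 CPM in STAT6-/- replicate 1, 185 and 146 in STAT6-/- replicates 2 and 3 and 206 to 278 in WT, so STAT6-/- replicate 1 also differs in a marker of position along the colon. The 5 distal colon genes measured, with Hoxd13 among them, summed to 209.7, 605 and 350.3 FPKM in STAT6-/- and 648, 722 and 560.1 in WT. Of these 5 genes 1 was called lower. STAT6-/- replicate 2 had a Spearman correlation of 0.953 with WT replicate 1, above its 0.946 and 0.94 with the other STAT6-/- libraries. In tissue RNA, fewer cells of a type and less RNA per cell cannot be told apart.

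Of the 41 genes, 3 rose and 10 fell in STAT6-/- colons, 25 did not pass the test and 3 were left untested by the filter on low counts (edgeR, adjusted p below 0.05 after Benjamini-Hochberg correction over all 15066 tested genes). Dhrs9, Ces1g and Abcc3 rose. Cyp2e1, Cyp2c65, Aldh1a1, Ephx1, Ephx2, Gstt1, Ugt2b34, Inmt, Tpmt and Abcg2 fell. Of these called genes, Ces1g, Cyp2c65 and Inmt reached the count minimum of that filter in all 3 libraries only in the genotype in which they were higher. Over all tested genes 22.9% were called, 11.4% higher and 11.5% lower, so the 10 falls are 26.3% of the 38 tested genes against 11.5% and the 3 rises 7.89% against 11.4%. The median log2 fold change of these 38 was -0.60, beside 0.01 over all tested genes. The 2 genotypes did not overlap in 20 of them, 6 higher and 14 lower, where 46.5% of all tested genes, 22.0% higher and 24.5% lower, did not overlap. The plot of fold changes shows these values. The list was chosen with earlier results of these data known, so the shares and medians above describe it and are no independent test. With library size scaling 5 genes rose and 10 fell. No gene of the 41 was called by edgeR without WT replicate 2 or without WT replicate 3, with 18 and 17 at an unadjusted p under 0.05. Over all genes only 31 of 15497 and 18 of 15395 were called in these fits, with 4370 and 4285 at an unadjusted p under 0.05. Without STAT6-/- replicate 2, 5 rose and 18 fell among 39 tested, against 33.9% of all genes called, and with trends on GC content and transcript length removed 2 rose and 6 fell, against 15.0%. With those trends removed the median log2 fold change of the 38 genes was -0.36, beside 0.04 over all tested genes.

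**Figure D1:**
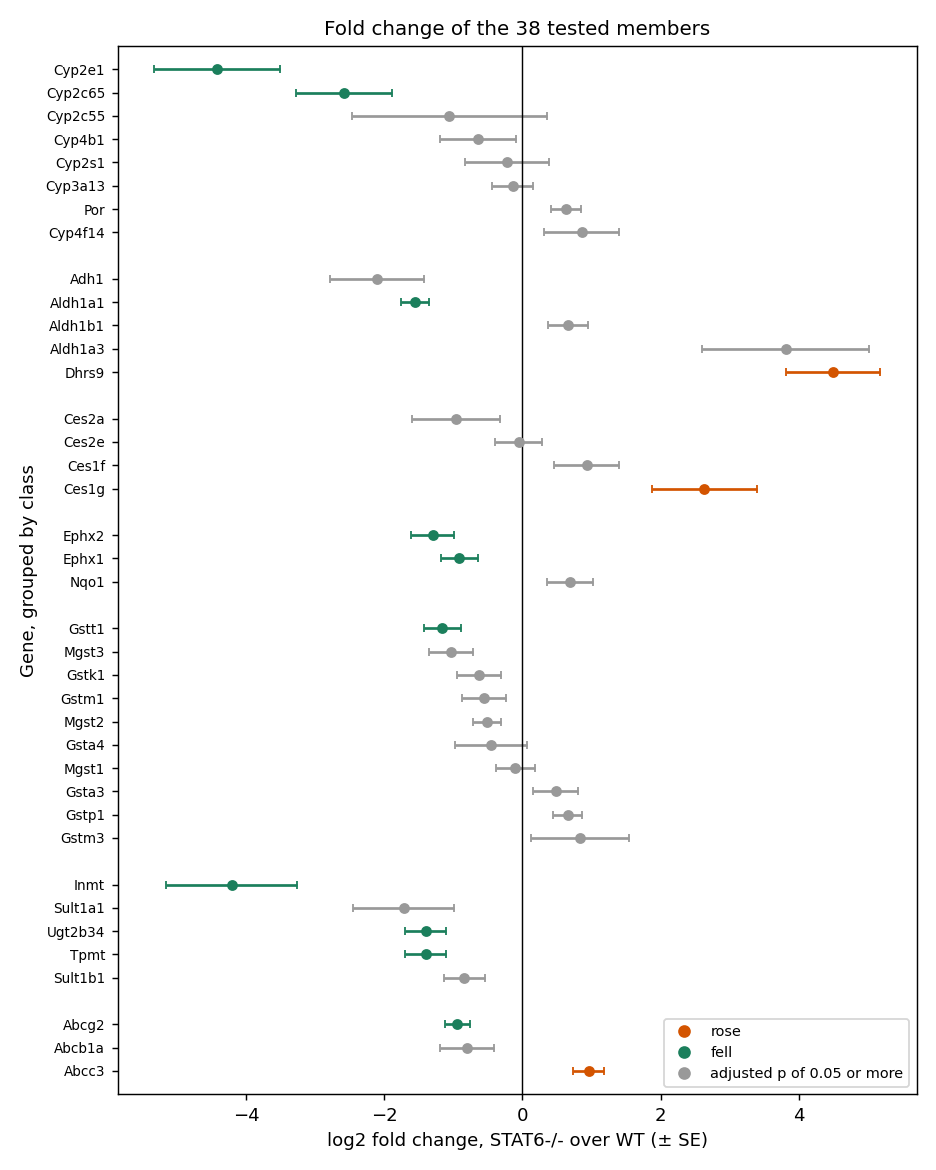
Log2 fold change (STAT6-/- over WT, ± SE) of each of the 38 tested genes, grouped by class from top to bottom in the order of the text. Orange points rose, green points fell and grey points had an adjusted p of 0.05 or more, and the values run from -4.42 for Cyp2e1 to 4.50 for Dhrs9.

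Adding the FPKM of the genes of a class shows which classes carry the RNA. All 41 genes together held 2091, 4472 and 2608 FPKM in STAT6-/- replicates 1, 2 and 3, against 5819, 6323 and 6376 FPKM in WT, a ratio of 0.495. The dehydrogenases (817 ± 633 against 2916 ± 353 FPKM, SD, n = 3 each) and the other conjugating enzymes (209 ± 81.0 against 487 ± 66.2) lay below WT in every STAT6-/- library. So did the glutathione transferases (1498 ± 330.4 against 2105 ± 118) and the epoxide hydrolases with Nqo1 (22.5 ± 3.04 against 31.8 ± 5.19). The P450 class stood at 149, 297 and 148 FPKM in STAT6-/- and 214, 247 and 238 in WT, and the carboxylesterases at 117, 293 and 108 against 252, 212 and 186, so that in both classes replicate 2 lay above and replicates 1 and 3 below every WT library. The efflux pumps overlapped as well, at 97.9, 180.3 and 143 FPKM in STAT6-/- and 170.1, 193 and 190.3 in WT. These sums are dominated by 1 or a few abundant genes, Adh1 for the dehydrogenases and Mgst3 for the glutathione transferases, and were not tested.

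**Figure D2:**
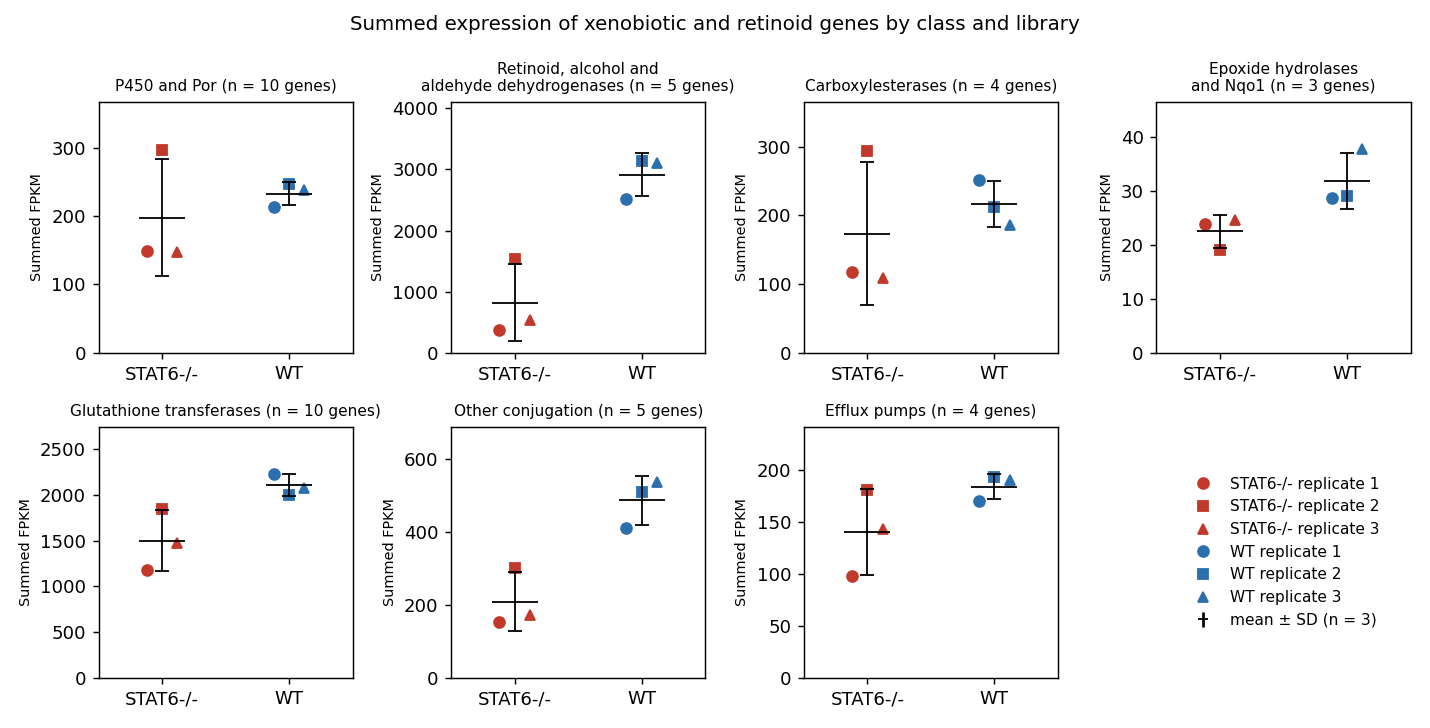
Summed FPKM of the genes of each class in each library, with STAT6-/- in red left of WT in blue, marker shapes for replicates 1 to 3, and black lines for the mean ± SD of 3 libraries. STAT6-/- replicate 2 (squares) is the highest STAT6-/- library in 6 of the 7 classes, and the dehydrogenase class differs most, at 366 to 1540.2 FPKM in STAT6-/- and 2509 to 3131 FPKM in WT. That sum is dominated by Adh1, which did not pass the test, and 3 of the 5 dehydrogenase genes had positive log2 fold changes.

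Promoters were searched for motifs because the groups differ in a transcription factor gene and several of the genes moved together. Gsta4, Aldh1a3, Ces1f and the called genes Abcc3 and Ephx2 had no RefSeq window and were not searched. RefSeq windows of GRCm38.p6, the assembly of mm10, from 250 bases before to 50 after a transcript start were found for 36 of the 41 genes (45 windows). The motif of TTC and GAA with any 4 bases between them, the spacing that STAT6 prefers, occurred in 4 of these windows (8.89%), against 6.95% of all 32851 promoter windows. None of the 4 genes was called. The stretches that hold it, with the motif in capitals, 5' to 3' along the gene's strand, are shown so that each can be compared with that gene's values below.
Abcb1a: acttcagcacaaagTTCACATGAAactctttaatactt
Gstm1: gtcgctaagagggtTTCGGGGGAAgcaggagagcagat
Gstm3: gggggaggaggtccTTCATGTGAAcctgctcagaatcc
Sult1a1: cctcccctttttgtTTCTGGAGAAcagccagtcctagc
They lie at chr5:8566903-8566940 (plus strand), chr3:108018059-108018096, chr3:107969380-107969417 and chr7:126676435-126676472 (minus strand). The motifs start 174, 109, 229 and 40 bases before the start.

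The other motifs searched belong to factors of the clock and of xenobiotic responses. The D-box TTANGTAA, bound by the clock output factors Dbp, Tef and Hlf, occurred in 4.44% of the windows and 2.32% of all promoters, in Ces1g and Sult1a1 only. The stretch of Ces1g, the only called gene with it, lies at chr8:93337420-93337455 (minus strand), with the motif 232 bases before the start.
Ces1g: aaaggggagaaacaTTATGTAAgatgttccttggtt
The antioxidant response core TGACNNNGC, bound by Nrf2 (gene Nfe2l2), was found in 13.3% of the windows against 12.4% of all promoters. The core GCGTG, bound by the aryl hydrocarbon receptor Ahr, was found in 24.4% against 32.4%. Of the called genes searched, Cyp2c65 held the antioxidant response core, and Abcg2 and Tpmt held the core bound by Ahr. All motifs were searched on both strands, a window can hold more than 1, and a match is a description of letters and not of binding.

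Among the P450 genes, Cyp2e1 and Cyp2c65 fell, 6 others did not pass the test, and Cyp1a1 and Cyp2b10 were removed by the filter on low counts. Cyp2e1, an oxidase of ethanol and other small molecules (chromosome 7, 140763819 to 140774990, mm10), stood at 0.513, 0.574 and 2.38 CPM in STAT6-/-, against 7.69, 17.0 and 49.6 CPM in WT. The groups did not overlap, and the WT libraries themselves spread widely. It fell 21.5-fold (log2 fold change -4.42 ± 0.91, edgeR adjusted p = 0.0209). Cyp2c65 (chromosome 19, 39061006 to 39093948), an epithelial enzyme that oxidises arachidonic acid, stood at 0.467, 4.33 and 1.64 CPM in STAT6-/-, against 11.7, 13.6 and 13.2 CPM in WT. Its WT libraries lay close together, and it fell 5.99-fold (log2 fold change -2.58 ± 0.69, adjusted p = 0.0383). Cyp2c65 reached the minimum of the filter on low counts in all 3 WT libraries but in only 2 STAT6-/- libraries. Without WT replicate 3 the log2 fold change of Cyp2e1 was -3.42 and without STAT6-/- replicate 3 it was -5.46. The call of Cyp2e1 was also lost without STAT6-/- replicate 1, and that of Cyp2c65 without STAT6-/- replicate 3, without WT replicate 1 and after removal of GC and length trends.

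Cyp2c55, the neighbour of Cyp2c65 on chromosome 19 and the most abundant P450 gene of the list by FPKM, split the STAT6-/- libraries. It stood at 5.18, 257 and 3.70 CPM in STAT6-/- replicates 1, 2 and 3, against 189, 227 and 140.2 CPM in WT. Replicates 1 and 3 were thus far below WT and replicate 2 above it (log2 fold change -1.06 ± 1.41, adjusted p = 0.599), and without replicate 2 the log2 fold change was -5.35 (adjusted p = 0.00146). Cyp2s1, a P450 of epithelia, stood at 20.8, 102 and 154 CPM in STAT6-/- and 85.7, 111 and 125 CPM in WT, with only replicate 1 outside the WT range on the low side (adjusted p = 0.808). Cyp4f14, an oxidase of leukotriene B4 and other fatty acids, had 149, 95.3 and 27.1 CPM in STAT6-/- and 57.6, 53.7 and 38.2 CPM in WT (adjusted p = 0.271). It was called higher only without STAT6-/- replicate 3 (log2 fold change 1.34, adjusted p = 0.0243). Cyp3a13 had 67.6, 131 and 70.9 CPM in STAT6-/- and 75.4, 113 and 109 in WT, and Cyp4b1 had at most 2.84 CPM in any library. Neither passed the test.

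Por, the reductase that supplies electrons to microsomal P450 enzymes, had a positive log2 fold change. It stood at 82.9, 100 and 135 CPM in STAT6-/-, against 68.8, 78.9 and 56.7 CPM in WT, with no overlap but an adjusted p of 0.0754 (log2 fold change 0.63 ± 0.22). Por passed with library size scaling (adjusted p = 0.0357), with DESeq2 (0.0427), with log2 FPKM plus 1 (0.0453) and without STAT6-/- replicate 1 (0.0499). With GC and length trends removed its log2 fold change was 0.35 (adjusted p = 0.273). Cyp1a1, the P450 that the aryl hydrocarbon receptor induces, had 16 counts over the 6 libraries, 2 of them in STAT6-/-. Cyp2b10, the P450 induced by the receptor CAR, had 0 counts in STAT6-/- and 1, 3 and 13 counts in WT. In WT these are 0.0591, 0.186 and 0.737 CPM. A count of 0 allows a level of up to 3 counts, or 0.140 to 0.159 CPM in the STAT6-/- libraries, which is below WT replicate 3 and above WT replicate 1. WT replicate 2 itself held only 3 counts, so a difference from it is not shown.

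The dehydrogenases of alcohol and retinoids went both ways. Dhrs9, a short-chain dehydrogenase that oxidises retinol and hydroxysteroids (chromosome 2, 69380462 to 69403086), had the largest rise of the 38 tested genes. It stood at 79.3, 26.2 and 94.5 CPM in STAT6-/-, against 5.20, 1.18 and 2.44 CPM in WT, and the lowest STAT6-/- library was above every WT library. It rose 22.6-fold (log2 fold change 4.50 ± 0.68, edgeR adjusted p = 0.0121), with a log2 fold change from 4.12 to 5.18 with any library left out. Aldh1a1, which makes retinoic acid from retinaldehyde (chromosome 19, 20492583 to 20643463), had 25.3, 24.3 and 16.1 CPM in STAT6-/-, against 67.5, 67.4 and 57.6 CPM in WT. Both groups were tight and well apart, and Aldh1a1 fell 2.93-fold (log2 fold change -1.55 ± 0.20, adjusted p = 0.00971). Of the 13 called genes it had the smallest adjusted p, and its call and that of Dhrs9 were lost only without WT replicate 2 or WT replicate 3.

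Aldh1a3, the other retinaldehyde dehydrogenase of the list, stood on the opposite side. It had 22.0, 23.0 and 410.4 CPM in STAT6-/-, against 9.40, 9.43 and 13.5 CPM in WT. All STAT6-/- libraries were above WT, but replicate 3 was far above the others, and the log2 fold change of 3.81 ± 1.21 did not pass (adjusted p = 0.0602). Without replicate 3 it was 1.10 with an adjusted p of 0.0271, and Aldh1a3 was also called higher without STAT6-/- replicate 1 or 2. Adh1, the class I alcohol dehydrogenase that also clears retinol, was by FPKM the most abundant of the 41 genes, at 678 ± 658 FPKM in STAT6-/- and 2845 ± 354 in WT. Its CPM were 302, 1928 and 482 in STAT6-/-, against 3311, 4432 and 3964 in WT. No STAT6-/- library reached the WT range, yet replicate 2 lay several times above the other STAT6-/- libraries. The log2 fold change of Adh1 was -2.11 ± 0.68 (adjusted p = 0.0631). It passed with DESeq2 (adjusted p = 0.0032), limma-voom (0.0442), log2 FPKM plus 1 (0.036) or plus 0.1 (0.0457) and without STAT6-/- replicate 2 (-3.29, 0.00252). Aldh1b1, a mitochondrial aldehyde dehydrogenase, had 142, 179 and 90.6 CPM in STAT6-/- and 82.2, 109.9 and 67.6 in WT (adjusted p = 0.134), and was called higher without STAT6-/- replicate 3 (log2 fold change 0.94, adjusted p = 0.0368).

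Of the carboxylesterases, which hydrolyse ester and amide drugs and lipids, Ces1g rose and 3 did not pass. Ces1g (chromosome 8, 93302369 to 93337209) had 1.91, 0.574 and 3.44 CPM in STAT6-/-, against 0.355, 0.124 and 0.454 CPM in WT. It rose 6.19-fold (log2 fold change 2.63 ± 0.76, adjusted p = 0.0483) but was by FPKM the scarcest called gene of the 41, and it passed the filter on low counts through its STAT6-/- libraries alone. Its call was lost with upper quartile scaling, limma-voom, log2 FPKM plus 1 or plus 0.1, GC and length trends removed and without WT replicate 1. With a filter of 1 CPM in 3 libraries, and without STAT6-/- replicate 1 or 3, Ces1g was not tested. The gut esterases Ces2e and Ces2a, the abundant ones by FPKM, split the STAT6-/- libraries instead. Ces2a had 39.5, 209 and 42.5 CPM in STAT6-/-, against 210.3, 205 and 153 CPM in WT (log2 fold change -0.96 ± 0.64, adjusted p = 0.296). Ces2e had 175, 382 and 181 CPM in STAT6-/-, against 302, 256 and 208 CPM in WT (adjusted p = 0.921). Replicate 2 was level with or above WT for both genes and replicates 1 and 3 were below. Without replicate 2 the log2 fold change of Ces2a was -2.18 (adjusted p = 0.00237). Ces1f had 3.73, 6.94 and 2.22 CPM in STAT6-/- and 2.48, 1.74 and 2.55 in WT (adjusted p = 0.179).

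Both epoxide hydrolases fell. Ephx2, the soluble enzyme that hydrolyses fatty acid epoxides (chromosome 14, 66084372 to 66124522), had 6.67, 14.9 and 13.0 CPM in STAT6-/-, against 23.9, 30.3 and 30.8 CPM in WT. The groups were apart and the fall was 2.46-fold (log2 fold change -1.30 ± 0.31, adjusted p = 0.0291). Ephx1, the microsomal enzyme that hydrolyses epoxides made by P450 (chromosome 1, 180989556 to 181017569), had 15.0, 10.8 and 9.63 CPM in STAT6-/-, against 18.7, 18.9 and 29.2 CPM in WT. It fell 1.88-fold (log2 fold change -0.91 ± 0.27, adjusted p = 0.0492), just inside the threshold, and lost its call in all other settings run except DESeq2 and a filter of 1 CPM in 3 libraries. Ephx2 lost its call without WT replicate 1. Nqo1, which reduces quinones and is a target of Nrf2, had 15.4, 8.72 and 20.9 CPM in STAT6-/-, against 10.6, 9.18 and 8.11 CPM in WT. Replicate 2 lay inside the WT range and the other STAT6-/- libraries above it (log2 fold change 0.69 ± 0.33, adjusted p = 0.165). Without replicate 2, Nqo1 was called higher (log2 fold change 0.99, adjusted p = 0.0212).

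**Figure D3:**
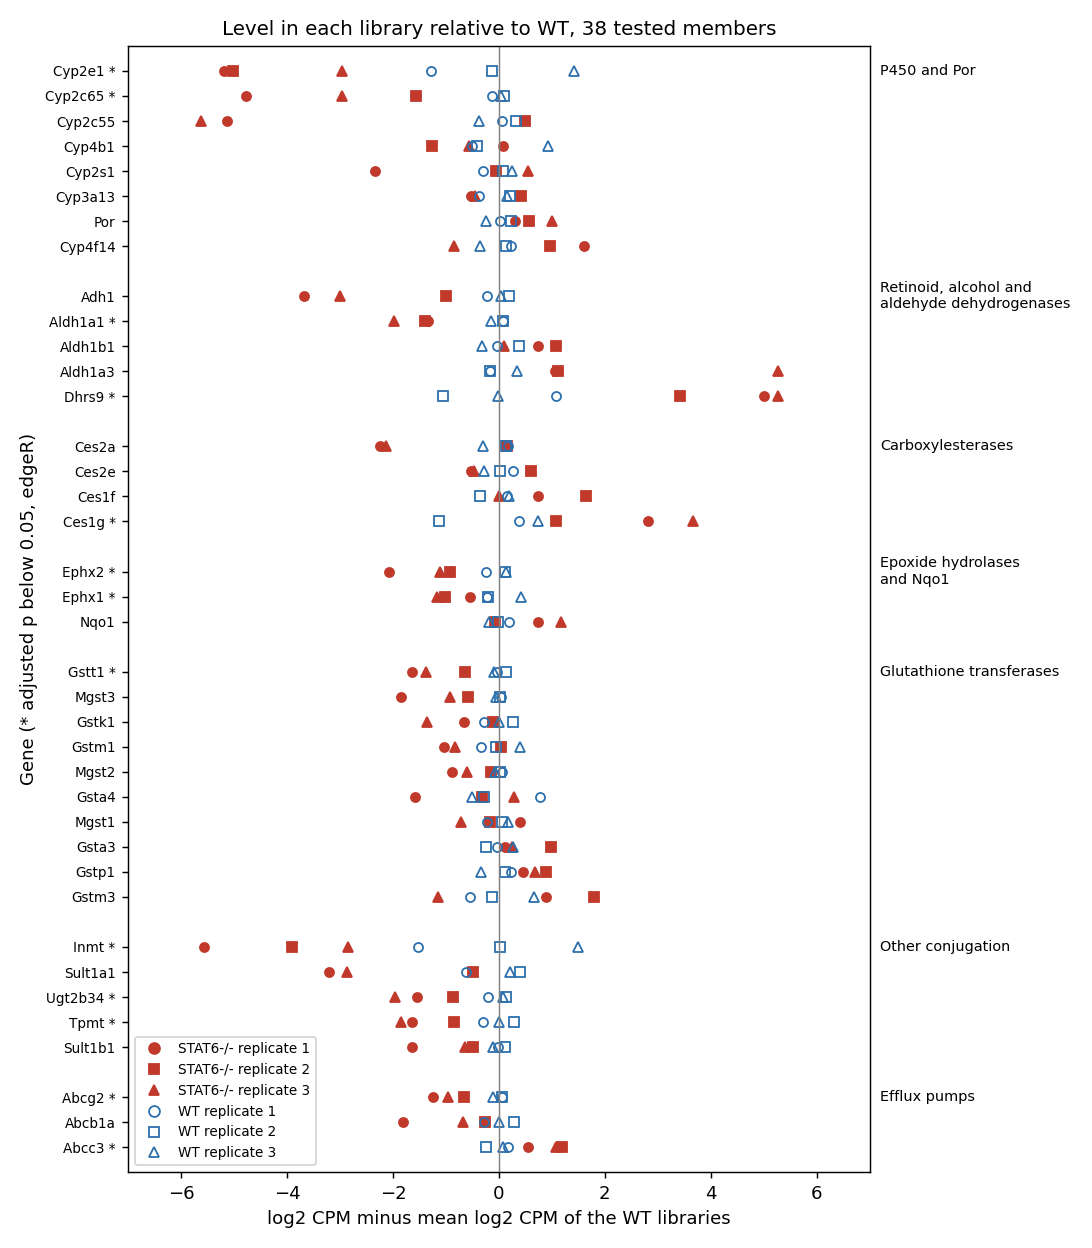
Each library's log2 CPM minus the mean log2 CPM of the 3 WT libraries, for the 38 tested genes by class, with filled red markers for STAT6-/- and open blue markers for WT. Asterisks mark genes with an edgeR adjusted p below 0.05. STAT6-/- replicate 2 (red squares) sits at the WT markers for Cyp2c55, Ces2a, Sult1a1 and Abcb1a, where STAT6-/- replicates 1 and 3 lie to the left.

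Glutathione transferases join glutathione to reactive compounds, and of 10 genes 1 passed the test, Gstt1. Gstt1, of the theta class (chromosome 10, 75783813 to 75798584), had 18.4, 37.0 and 22.0 CPM in STAT6-/-, against 56.0, 63.0 and 53.6 CPM in WT. The groups were apart, and it fell 2.23-fold (log2 fold change -1.16 ± 0.27, adjusted p = 0.0268). The call was lost without STAT6-/- replicate 1, STAT6-/- replicate 3 or WT replicate 1. The membrane-bound Mgst3, the most abundant of the class by FPKM, had 218, 522 and 416 CPM in STAT6-/-, against 806, 803 and 753 CPM in WT. All STAT6-/- libraries lay below WT, yet it just missed the threshold (log2 fold change -1.03 ± 0.32, adjusted p = 0.056). It passed with library size scaling (0.0444), upper quartile scaling (0.0406), DESeq2 (0.0107), log2 FPKM plus 1 (0.0433) and without STAT6-/- replicate 2 (0.0205). With GC and length trends removed the log2 fold change of Mgst3 was -0.72 (adjusted p = 0.134). Mgst2 was also below WT in every STAT6-/- library, at 42.6, 71.1 and 52.0 CPM against 81.4, 80.0 and 74.3 (log2 fold change -0.51 ± 0.20, adjusted p = 0.103). It was called lower without STAT6-/- replicate 2 (-0.71, adjusted p = 0.0147), while with GC and length trends removed its log2 fold change turned to 0.30.

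Gstp1, of the pi class, went the other way. It had 248, 336 and 289 CPM in STAT6-/-, against 212, 195 and 144 CPM in WT, without overlap (log2 fold change 0.66 ± 0.21, adjusted p = 0.0599). It passed with library size scaling (0.034), DESeq2 (0.0173), log2 FPKM plus 1 (0.0334) and GC and length trends removed (log2 fold change 0.98, adjusted p = 0.0246). The remaining 6 genes overlapped between the genotypes. Gsta4 had 44.5, 106 and 163 CPM in STAT6-/- and 229, 109.9 and 93.5 in WT, a wide spread in both. Gstm1 had 61.7, 129 and 70.9 CPM in STAT6-/- and 100.2, 121 and 165 in WT, and Gstk1 24.7, 36.2 and 15.2 against 32.1, 47.0 and 39.1, in each case with replicate 2 inside the WT range. Without that library both were called lower, Gstm1 with a log2 fold change of -0.93 (adjusted p = 0.0292) beside -0.56 with it, and Gstk1 with -0.95 (0.0380) beside -0.63. Mgst1, Gsta3 and Gstm3 had log2 fold changes of -0.10, 0.48 and 0.84 with adjusted p from 0.291 to 0.809. Genes of the Gstm, Gsta, Ces1 and Cyp2c families resemble one another, and how their shared reads were split is uncertain.

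Of the other conjugating enzymes 3 of 5 fell and all 5 had negative log2 fold changes. Ugt2b34, a glucuronosyltransferase (chromosome 5, 86889770 to 86906937) and the most abundant of the class by FPKM, had 229.5, 369 and 173 CPM in STAT6-/-, against 584, 734 and 713 CPM in WT. It fell 2.63-fold (log2 fold change -1.40 ± 0.30, adjusted p = 0.0226). Tpmt, the thiopurine methyltransferase (chromosome 13, 47021987 to 47043338), had 12.0, 20.7 and 10.3 CPM in STAT6-/-, against 30.4, 45.7 and 37.4 CPM in WT. It fell 2.64-fold (log2 fold change -1.40 ± 0.30, adjusted p = 0.0228). Inmt, which methylates indoleamines such as tryptamine (chromosome 6, 55170627 to 55174990), had 0.233, 0.731 and 1.53 CPM in STAT6-/-, against 3.84, 11.2 and 31.2 CPM in WT. Its WT libraries spread as widely as those of Cyp2e1, and it fell 18.6-fold (log2 fold change -4.21 ± 0.95, adjusted p = 0.0252). Inmt reached the minimum of the filter on low counts in all 3 WT libraries but in only 2 STAT6-/- libraries. Its call was lost with limma-voom and without STAT6-/- replicate 1, and its log2 fold change ran from -4.96 to -3.18 with any library left out. The calls of Ugt2b34 and Tpmt were lost without STAT6-/- replicate 1, and that of Ugt2b34 also without WT replicate 1 and with GC and length trends removed (adjusted p = 0.051).

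The sulfotransferases did not pass. Sult1b1 had 135, 300.2 and 270.1 CPM in STAT6-/-, against 415, 457 and 389.7 CPM in WT, with no overlap (log2 fold change -0.84 ± 0.30, adjusted p = 0.0837). Sult1a1 had 13.2, 86.1 and 16.6 CPM in STAT6-/-, against 79.1, 161 and 141 CPM in WT, where replicate 2 alone reached the WT range (log2 fold change -1.72 ± 0.73, adjusted p = 0.125). Without replicate 2 the log2 fold change of Sult1a1 was -3.07 (adjusted p = 0.00349). It also passed with DESeq2 (0.0359), while Sult1b1 passed with DESeq2 (0.0383) and without replicate 2 (0.0431). With GC and length trends removed the log2 fold change of Sult1b1 was -0.26 (adjusted p = 0.585) and that of Sult1a1 -1.46 (0.174).

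The efflux pumps differed from one another. Abcg2, the breast cancer resistance protein of the apical membrane (chromosome 6, 58584491 to 58692451), had 54.4, 81.1 and 66.0 CPM in STAT6-/-, against 134, 134 and 119 CPM in WT. It fell 1.92-fold (log2 fold change -0.94 ± 0.18, adjusted p = 0.0171). Abcc3, the conjugate pump of the basolateral membrane (chromosome 11, 94343295 to 94393017), had 180.2, 279 and 259 CPM in STAT6-/-, against 139, 103 and 129 CPM in WT. It rose 1.94-fold (log2 fold change 0.96 ± 0.22, adjusted p = 0.0263). In both genes all STAT6-/- libraries were on the same side of WT, and both calls were lost with GC and length trends removed (log2 fold changes -0.57 and 0.67, adjusted p = 0.0811 and 0.0727) and without WT replicate 1. Abcb1a, a P-glycoprotein and the most abundant pump by FPKM, had 161, 471 and 353 CPM in STAT6-/-, against 463, 683 and 566 CPM in WT. Its replicate 2 just reached the WT range (log2 fold change -0.80 ± 0.39, adjusted p = 0.167). Abcc2, with 49 counts over the 6 libraries, was not tested.

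STAT6-/- replicate 2 stood apart from the other STAT6-/- libraries in many of these genes. For 8 of the 38 tested genes, Cyp2c55, Cyp3a13, Ces2a, Ces2e, Gstm1, Gstk1, Sult1a1 and Abcb1a, replicates 1 and 3 lay below every WT library and replicate 2 did not. That is 21.1% of the 38, beside 7.39% of all tested genes. The same pattern with replicate 1 or 3 as the exception was seen in 1 and 0 of the 38, beside 3.16% and 5.4% of all tested genes. In the other direction replicate 3 was the exception most often. It alone was not above every WT library in 4 of the 38, Cyp4f14, Aldh1b1, Ces1f and Gstm3 (10.5%, beside 5.71% of all tested genes). Replicates 1 and 2 were this exception in 0 and 1 of the 38, beside 3.66% and 8.22%. Replicate 2 was the STAT6-/- library nearest to the WT mean in 22 of the 38 genes, beside 46.2% of all tested genes. Replicates 1 and 3 lay below every WT library in 24 and 26 of the 38 (42.3% and 41.5% of all tested genes), and replicate 2 in 15 (40.3%).

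A wider list held 205 other genes of these pathways. Of 159 tested, 10 rose and 31 fell, 6.29% and 19.5% beside 11.4% and 11.5% of all tested genes, with a median log2 fold change of -0.40. Among other P450 and cytochrome b5 genes 1 of 23 tested rose, Cyp4f40 (35.3 ± 7.23 against 12.0 ± 1.28 CPM), and 5 fell, among them Cyp4v3 (2.80-fold), Cyp2u1 (5.69-fold) and the electron carrier Cyb5a (57.3 ± 18.9 against 129.7 ± 5.84 CPM). Cyp2d34, the most abundant of that group, had a log2 fold change of -0.85 ± 0.32 (adjusted p = 0.0953). Of 36 other phase I genes 13 fell and 1 rose. Maoa, the monoamine oxidase, fell 3.37-fold to 537 ± 137 CPM, against 1810.4 ± 256 in WT, Akr1c19 fell 5.88-fold and Fmo1 5.05-fold. Xdh, the xanthine oxidoreductase, rose 4.59-fold, and the abundant Akr1a1 had a log2 fold change of -0.02 ± 0.17.

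In the wider retinoid pathway 1 of 32 tested genes rose and 4 fell. Rbp2, the cellular retinol-binding protein of the gut, had 11.9, 29.3 and 23.0 CPM in STAT6-/-, against 74.5, 68.1 and 62.8 CPM in WT. It fell 3.20-fold (adjusted p = 0.0169), while the retinoic acid receptor gene Rarg fell 1.75-fold and Adh5 1.71-fold. Scarb1, a scavenger receptor that takes up carotenoids, rose 2.60-fold. Of 23 further glutathione genes 2 rose and 3 fell. Glutathione reductase, Gsr, rose 3.33-fold to 149.7 ± 24.2 CPM, against 44.9 ± 8.32 in WT, while Gstm5, Gsto2 and Gstm2 fell 2.30-fold, 5.12-fold and 2.00-fold. Gsto1, the most abundant of them, did not pass (log2 fold change -0.30 ± 0.32). Of 21 other conjugation genes tested 4 fell: Hnmt, Sult1d1, Ugt2b1 and Ugdh, the enzyme that makes the donor for glucuronidation (179 ± 88.1 against 454 ± 9.25 CPM). Of 8 further carboxylesterases Ces2f rose 14.1-fold and Ces1c fell 6.21-fold, and Ces2c, the most abundant, had 190.3, 603 and 227 CPM in STAT6-/- and 542, 587 and 463 CPM in WT. Among the transporters, Slco4a1 rose 7.84-fold, Slc51b 3.61-fold and Slco2a1 1.61-fold, and Slc22a18, the most abundant, had a log2 fold change of 0.42 ± 0.17 (adjusted p = 0.103).

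Of 24 tested receptors and factors that regulate these genes, 3 rose and 3 fell, 12.5% each beside 11.4% and 11.5% of all tested genes. Nr1i3, the receptor CAR, fell 3.26-fold (1.12, 3.71 and 2.17 CPM in STAT6-/- and 8.28, 7.63 and 6.86 CPM in WT), Hnf4g fell 2.07-fold and the glucocorticoid receptor Nr3c1 fell 1.60-fold. Keap1, which marks Nrf2 for degradation, rose 1.78-fold to 94.9 ± 6.35 CPM, against 53.3 ± 3.32 in WT, and Nfe2l2 stood at 107 ± 2.19 against 146 ± 12.7 CPM (log2 fold change -0.45 ± 0.14, adjusted p = 0.0532). Hnf4a, the most abundant regulator, was at 860.2 ± 111 against 860.4 ± 186 CPM. The aryl hydrocarbon receptor gene Ahr (log2 fold change 0.14 ± 0.21, adjusted p = 0.628) and the xenobiotic receptor PXR gene Nr1i2 (-0.48 ± 0.25, adjusted p = 0.196) did not pass. Of 17 Nrf2 targets outside the 41 genes 5 rose, Gsr, Tkt, Pgd, Osgin1 and Srxn1. Fth1, the ferritin heavy chain and most abundant of these targets, had a log2 fold change of -0.33 ± 0.25 (adjusted p = 0.351).

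Some markers of other cells also differed between the genotypes, where 11.5% of all tested genes were called lower and 11.4% higher. Of 20 fat cell genes, 6 fell among 17 tested, with summed levels of 88.4 to 95.3 FPKM in STAT6-/- and 145 to 558 FPKM in WT. The defining gene Adipoq had 0.0933, 0.0522 and 0.793 CPM in STAT6-/- and 2.07, 6.70 and 23.8 CPM in WT, Cidec had 2.71, 0.418 and 5.87 against 2.60, 4.47 and 18.7, and Plin1 had 0.0933, 0 and 0.423 against 0.414, 1.30 and 6.86. Cyp2e1 and Inmt followed the same order of WT libraries as Adipoq and the fat cell gene Cfd, as the bars by library show. All were lowest in WT replicate 1 and highest in WT replicate 3. The order was not particular to these genes, since Ephx1, Ephx2, Gstm1, Cyp2s1 and Aldh1a3 had it as well. Of these, Aldh1a3 lay above WT in every STAT6-/- library. How many of all tested genes had this order was not counted. The summed fibroblast genes (754, 1323 and 1966 FPKM in WT replicates 1, 2 and 3) and liver genes (39.3, 50.3 and 63.2) had this order too. The smooth muscle genes (4622, 3567 and 4849 FPKM) and the colonocyte genes (28915, 28655 and 24179) did not. Fabp4, the most abundant of the fat cell genes, fell too (9.57 ± 3.29 against 43.4 ± 31.7 CPM). Of the 3 fat cell genes with a positive log2 fold change, Pparg had 48.8, 38.8 and 53.6 CPM in STAT6-/- and 26.4, 28.5 and 37.9 CPM in WT, and Gpd1 had 19.6, 25.5 and 15.5 CPM in STAT6-/- and 13.7, 11.3 and 13.0 CPM in WT. Both lay above every WT library without passing the test (adjusted p = 0.0646 and 0.0737), and Lipe overlapped. Mouse fat cells are known to express Cyp2e1, and the part of fat cells in these differences was not tested. Of 8 smooth muscle genes 7 fell, with 1143 to 2168 FPKM in sum in STAT6-/- and 3567 to 4849 in WT, and none of the 8 at 0 in any library. Of 9 fibroblast genes 3 fell, Lum, Mfap5 and Pi16, with 288 to 938 FPKM against 754 to 1966. The colonocyte genes summed to 16424 to 21582 FPKM in STAT6-/- and 24179 to 28915 in WT, with Car1 lower and Krt20 and Vil1 higher. The part of muscle, fibroblasts and colonocytes was not tested.

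**Figure D4:**
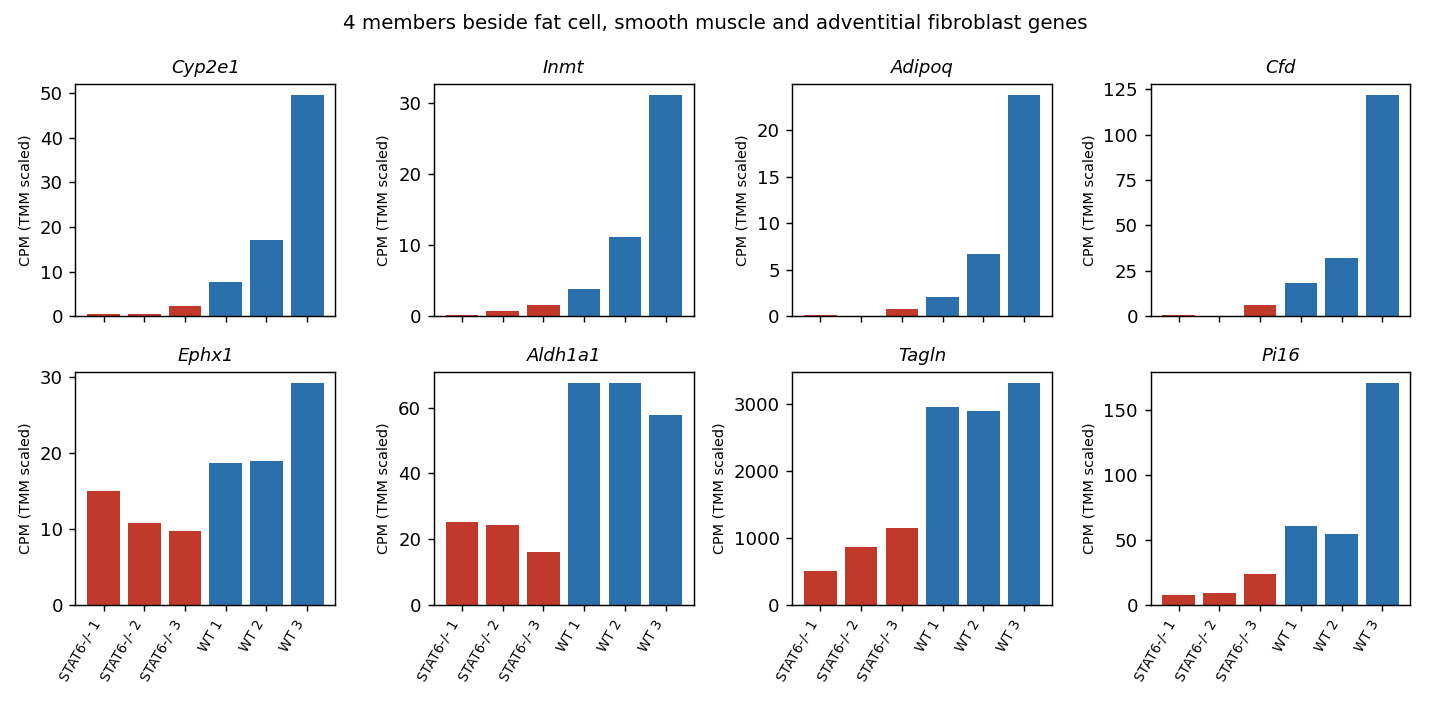
CPM in each library of the 4 genes Cyp2e1, Inmt, Ephx1 and Aldh1a1 beside the fat cell genes Adipoq and Cfd, the smooth muscle gene Tagln and the fibroblast gene Pi16, with STAT6-/- libraries in red left of WT in blue. Cyp2e1, Inmt, Adipoq and Cfd all peak in WT replicate 3 (49.6, 31.2, 23.8 and 122 CPM). Ephx1 is also highest there, whereas Aldh1a1 is level over the WT libraries at 57.6 to 67.5 CPM.

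Clock genes differed as well. Of 17, Cry1 and Nfil3 rose and 6 fell. Dbp, a clock output factor known in mouse liver to drive xenobiotic enzymes, had 2.29, 4.80 and 1.06 CPM in STAT6-/- and 18.9, 62.0 and 54.6 CPM in WT, and Tef, of the same family, fell as well (log2 fold change -1.85 ± 0.41, adjusted p = 0.0244). Nr1d1 had 3.31, 15.5 and 7.09 CPM in STAT6-/- and 122, 144 and 147 CPM in WT. Bhlhe40, the most abundant of the clock genes, overlapped between the groups (log2 fold change 0.45 ± 0.42). The labels give no time of day, and the part of the clock in these differences was not tested.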

How the data were processed

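Colon RNA of 3 STAT6-/- and 3 WT libraries was analysed. Each library has a table with 2 measures, per the file headers. One is the expected count, deposited by the authors as estimated reads for each RefSeq transcript. The other is FPKM, which the authors normalised for length and depth. The submitters' processing notes list Bowtie2 2.2.5, RSEM 1.2.12 and mm10. The lowest FPKM listed is 0.01, and a transcript absent from a table was set to 0. Of 28238 transcripts, 27981 were named from RefSeq GRCm38.p6 and 154 from GENCODE. The other 103, with 0.167% of counts, stayed separate. Counts were summed per gene and rounded.

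The test was that of edgeR 4.0.16 (R 4.3.3): quasi-likelihood F test, TMM factors, filterByExpr, robust estimation, Benjamini-Hochberg over 15066 genes, call below 0.05. Every adjusted p is edgeR's unless another tool is named. The SE is the log2 fold change over the square root of F. Values are mean ± SD of 3 libraries. Ces1g passed the filter through STAT6-/- libraries alone. Cyp2c65 and Inmt reached its count minimum in all 3 WT libraries but in only 2 STAT6-/- libraries. Alternatives were DESeq2 1.42.0, limma 3.58.1 (voom, log2 FPKM plus 1 or 0.1), other scalings and filters, a replicate block and each library left out, with a GC and length correction added after the data were seen. Figures used matplotlib 3.10.9.

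The genes, lists and rules were chosen with earlier results of these data known. All called genes and the 2 most abundant of each class are given by library; the rule for other lists was up to 4 genes of lowest p and the most abundant one, and not every gene it allows is named. Motifs, the 8 genes split by STAT6-/- replicate 2, Srxn1 and other genes outside the rule were chosen after their values were seen. One result on a transporter is not reported here.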

Additional observations from a re-analysis of the deposited data

How the results depend on the processing

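Each of the 13 called genes of the 41 kept its direction in every setting in which it was tested. Of the genes not called, Cyp2s1, Cyp3a13, Ces2e, Gsta4, Mgst1 and Mgst2 changed sign in at least 1 setting, and were called in none of those. Among the 41 genes, library size scaling gave 5 higher, DESeq2 5 higher, and the GC and length correction, chosen after seeing the data, 6 lower. DESeq2 gave 2696 higher calls over all genes and 19 among the other pathway genes, and the GC and length correction 1025 lower calls over all genes. With 1 library left out, calls ran from 12 to 2750 higher and from 6 to 2440 lower over all genes, from 0 to 5 higher and from 0 to 18 lower among the 41, and from 0 to 18 higher and from 0 to 57 lower among other pathway genes. The lowest counts came without WT replicate 2 or 3, and the cause was not tested. Without them edgeR called 0 of the 41, with 18 and 17 at an unadjusted p under 0.05, and no other tool was run on those subsets. The log2 fold change of Stat6 ran from -1.06 to -0.85 and missed the threshold in the same cases (adjusted p = 0.0725 and 0.0721). The replicate block gave 2 higher and 11 lower among the 41 and 1219 higher and 1445 lower over all genes. Under it Adh1 (adjusted p = 0.035) and Sult1a1 (0.0374) passed and Abcc3 (0.0566) and Ephx1 (0.0889) did not. Same-numbered libraries deviated together only weakly (correlations 0.023, 0.0445 and 0.134). STAT6-/- replicates 1 and 3 correlated best with the WT library of the same number, and STAT6-/- replicate 2 with WT replicate 1 (0.0544). With 3 libraries for each genotype, these values cannot settle whether the numbers pair the samples. The main test did not pair them. Counting error bounds genes below about 1 CPM, such as Ces1g and Inmt in the lower group.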
